A study of Mus musculus with 6 samples.

Results

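Arginine handling was followed in mouse macrophages through 10 genes chosen by symbol: the nitric oxide synthase Nos2, the arginases Arg1 and Arg2, the arginine carriers Slc7a1 and Slc7a2, the citrulline recycling enzymes Ass1 and Asl, the cofactor enzyme Gch1, and Odc1 and Azin1 of the polyamine branch. They are 10 of 16906 genes in the gene table and own 21 of 51947 entries in the transcript table. The cells were bone-marrow-derived macrophages labelled wild type, grown from marrow of C57BL/6 mice for 7 days with 10 ng/ml macrophage colony-stimulating factor in medium with 10% serum. All of them then received exosomes, which are small secreted vesicles, for 12 h. In 3 libraries, called stretched here, the vesicles came from epithelial cells stretched in cycles for 6 h, and in the other 3, called static, from epithelial cells that were not stretched. The dose is labelled as 100 µg/ml. No library without exosomes was analysed here. The sources used here give neither the kind and species of the epithelial cells nor the age of the mice. They also do not tell whether the replicates were separate mice or cultures, so p-values measure the spread between these libraries, which may be technical.

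Arginine is a shared substrate. Inducible nitric oxide synthase turns it into nitric oxide and citrulline, and it needs the cofactor tetrahydrobiopterin, whose synthesis starts with the product of Gch1. Arginases instead split arginine into urea and ornithine, which ornithine decarboxylase feeds into polyamines. Textbook accounts place Nos2 with classical activation of mouse macrophages and Arg1 with alternative activation, and both enzymes draw on arginine that carriers of the Slc7a family bring in or that Ass1 and Asl rebuild from citrulline.

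Library totals ran from 16984561 to 17625991 estimated counts. Static 3 stood apart from the other static libraries, correlating with them at 0.95 and 0.954 across genes (log2 CPM), where static 1 and static 2 correlated at 0.991. Macrophage markers were abundant in all 6 libraries, with a summed level of 20110 to 24235 CPM (counts scaled to a common library total) in stretched and 22847 to 32170 CPM in static libraries. Lyz2 alone held 10307 to 14318 CPM of that sum in stretched and 11425 to 21027 CPM in static libraries. Of these markers, Lyz2, Csf1r (2844 CPM) and C1qb (1844 CPM) were highest in static 3. Cd68 (655 CPM), Itgam (991 CPM) and Fcgr1 (449 CPM) were lowest there among the 6 libraries. Neutrophil markers summed to 4529 CPM in static 1, 6425 CPM in static 2 and 14932 CPM in static 3, and all 13 were higher in static 3 than in the other static libraries, against 6411 to 11531 CPM in stretched libraries. Monocyte markers summed to 633, 975 and 2316 CPM in static 1 to 3 and 1617 to 2602 CPM in stretched libraries, and mast cell and basophil markers to 63.4, 89.2 and 232 CPM against 130 to 185 CPM. Lymphocyte markers (41.4 to 75.5 CPM over the 6 libraries) and dendritic cell markers (6.24 to 15.3 CPM) were low. Stromal markers summed to 5688 to 7773 CPM in stretched and 4324 to 5687 CPM in static libraries. Epithelial markers summed to 19.3 to 38.8 CPM in stretched and 10.4 to 13.9 CPM in static libraries, of which Epcam held 13.4 to 36.9 CPM in stretched and 8.54 to 12 CPM in static libraries. The others reached at most 3.16 CPM (Cdh1), 1.67 CPM (Krt19), 0.518 CPM (Krt18), 0.46 CPM (Krt8) and 0.213 CPM (Sftpb). No listed marker found in the table was at 0 in every library. The part of these other cells in the results that follow was not tested.

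All 10 genes passed the filter on low counts. With exosomes of stretched cells Nos2, Arg1 and Slc7a2 rose, so 3 of 10 were higher and 0 lower (adjusted p under 0.05, edgeR's quasi-likelihood test over 12892 genes). Over all tested genes 6.55% were called higher and 5.38% lower. Before adjustment 5 of the 10 were higher and 1 was lower at p under 0.05. By the ranks of p, between 3931 and 4102 of the 12892 tested genes were under 0.05 in either direction. DESeq2 called 4 higher and 1 lower, where it called 10.9% and 9.97% of all genes. With the replicate number as a block, Nos2, Slc7a2 and Ass1 were higher and Slc7a1 lower, against 5.86% and 3.16% of all genes, and with library size alone Slc7a1 was the 1 lower gene, against 10.1%. The libraries of the groups did not overlap for 5 genes (Nos2, Arg1, Arg2, Slc7a2 and Ass1), each higher in stretched libraries, where 18.5% of all tested genes separated in that direction. The median log2 fold change of the 10 was 0.81, against -0.002 over all tested genes. In bulk RNA, fewer cells of a type and less RNA per cell cannot be told apart. The counts turned on single libraries. Without static 3, 4 of the 10 were higher (Nos2, Arg1, Arg2 and Slc7a2) and 2 lower (Slc7a1 and Odc1), and of all genes 16.1% were then higher and 15.4% lower, 31.5% in all. Without stretched 1, stretched 2 or static 1, 1 of the 10 was called, Nos2, and of all genes 1.23%, 0.275% and 0.673%. Without stretched 3, Nos2, Slc7a2 and Ass1 were called, against 6.25% of all genes. Without static 2, edgeR called 0 of the 10 and 0 of all genes. In that fit 6 of the 10 had p under 0.05 before adjustment, against 2855 of 13098 tested genes.

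**Figure D1:**
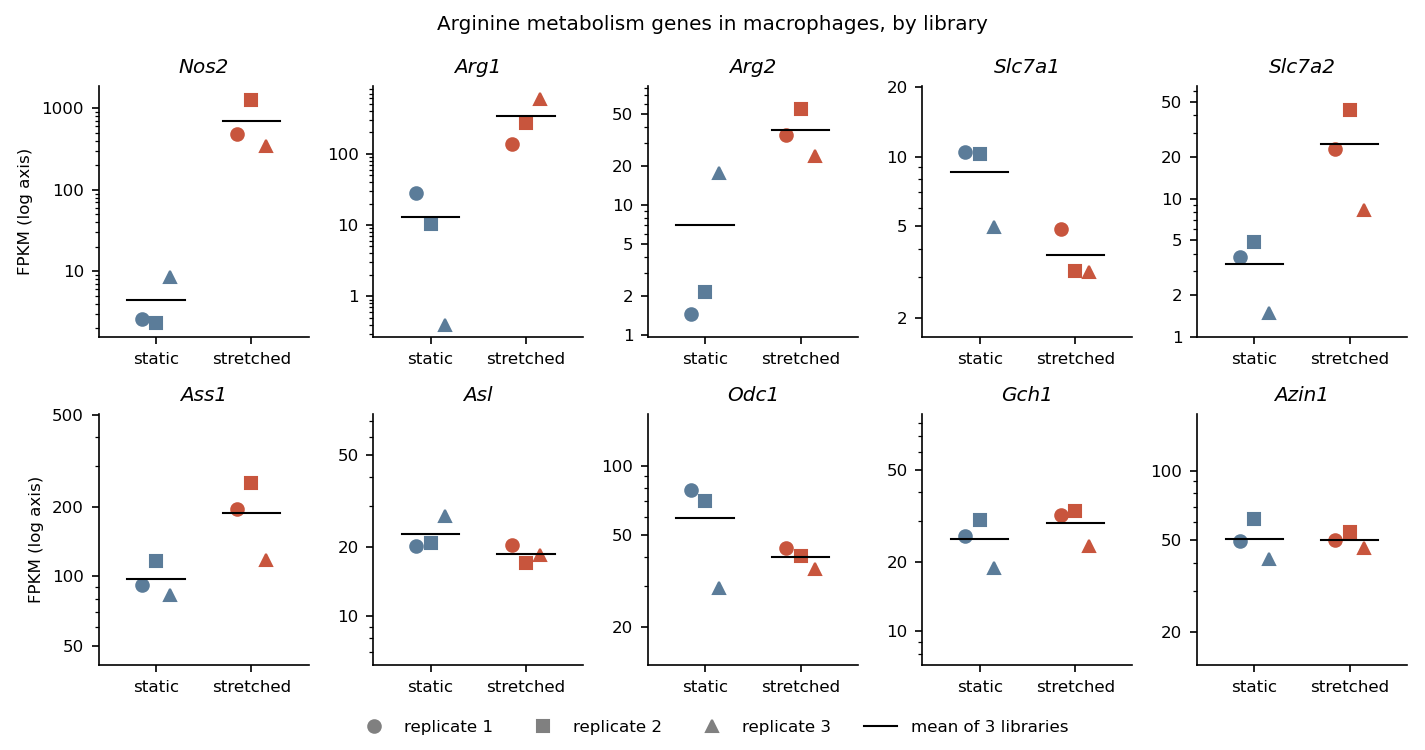
Level of each of the 10 genes in each library, in FPKM on a log axis, with 1 point per library (shape gives the replicate number) and a line at the mean of 3 libraries. Nos2, Arg1, Arg2, Slc7a2 and Ass1 are higher in every stretched library, Slc7a1 is lower with 4.87 FPKM in stretched 1 just under 4.97 FPKM in static 3, and static 3 lies apart from static 1 and 2 for Arg1, Arg2, Slc7a1 and Odc1.

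Nos2 (gene identifier 18126, chromosome 11, 78920787 to 78960226 on GRCm38.p6) makes the inducible synthase. Its level was 479 FPKM (fragments per kilobase of transcript and per mapped total, the authors' length-scaled value) in stretched 1, 1254 FPKM in stretched 2 and 341 FPKM in stretched 3. In static 1 to 3 it was 2.62, 2.33 and 8.48 FPKM. The groups lay far apart, with stretched 2 the highest and static 3 the highest of its group. The log2 fold change was 7.57 ± 0.88 (SE, n = 3 per group, adjusted p = 0.0122, edgeR). Among 12892 genes this was rank 1 by log2 fold change and rank 35 by p. Within a group the libraries still spread widely, by 4.42-fold from the lowest to the highest stretched library and by 3.54-fold among static libraries (CPM). The call was lost without static 2 (adjusted p = 0.0541) and held in the other 12 of 13 alternatives.

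Arg1 (gene identifier 11846, chromosome 10, 24915207 to 24927470), the cytosolic arginase, rose as well, but its libraries ran in another order. It measured 138, 273 and 597 FPKM in stretched 1 to 3 and 28.3, 10.2 and 0.4 FPKM in static 1 to 3. Stretched 3, the lowest stretched library for Nos2, was the highest for Arg1, and static 3, the highest static library for Nos2, was by far the lowest for Arg1. In static 3 the gene rested on 9 counts (exact Poisson 95% interval 4.12 to 17.1, counting error only) against 661 and 237 in static 1 and 2, a 73.6-fold spread within the static group (CPM). The log2 fold change was 4.85 ± 1.20 (SE, n = 3 per group, adjusted p = 0.0433, edgeR). With the replicate number as a block the adjusted p was 0.0859, and without stretched 1, stretched 2, stretched 3, static 1 or static 2 it was 0.0833, 0.127, 0.0855, 0.0748 and 0.142. Without static 3 it was 0.00886, at a log2 fold change of 4.28.

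Arg2 (gene identifier 11847, chromosome 12, 79130788 to 79156301) makes the mitochondrial arginase. Its level was 34.8, 54.9 and 23.7 FPKM in stretched 1 to 3 and 1.44, 2.12 and 17.5 FPKM in static 1 to 3. Every stretched library was above every static one, with stretched 2 highest, as for Nos2, but static 3 came close to stretched 3. The log2 fold change of 2.69 ± 0.89 (SE, n = 3 per group) did not pass the threshold with all libraries (adjusted p = 0.086, edgeR). It passed in limma voom with all libraries (3.42, adjusted p = 0.0415). Without static 3 it was 4.62 (adjusted p = 0.00329, with 0.00329 to 0.258 over the 13 alternatives). Arg2 was the 1 gene of the 10 whose deposited counts were not all whole.

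The balance between these enzymes differed from library to library. Per length, Nos2, Arg1 and Arg2 summed to 652, 1582 and 962 FPKM in stretched 1 to 3 and to 32.4, 14.6 and 26.4 FPKM in static 1 to 3. Nos2 made up 73.5%, 79.3% and 35.5% of that sum in stretched libraries and 8.1%, 15.9% and 32.1% in static ones. Arg1 was the larger part in stretched 3 (62.1%), static 1 (87.5%) and static 2 (69.6%), while in static 3 Arg2 held 66.4% and Arg1 1.51%. The log2 ratio of Nos2 to Arg1 FPKM in stretched 1 to 3 was 1.80, 2.20 and -0.81, and the static values were -3.43, -2.13 and 4.41. The mean difference of 1.45 on the log2 scale lay within the spread between libraries (exact two-sided permutation test, p = 0.6, where 3 against 3 allows no less than 0.1). Without static 3 the difference was 3.84, and without static 1 it turned to -0.08. The log2 ratio of Nos2 to Arg2, looked at after the values were seen, was 3.78 to 4.51 in stretched and -1.05 to 0.86 in static libraries, a mean difference of 4.06 (exact permutation test, p = 0.1, the smallest this design allows).

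**Figure D2:**
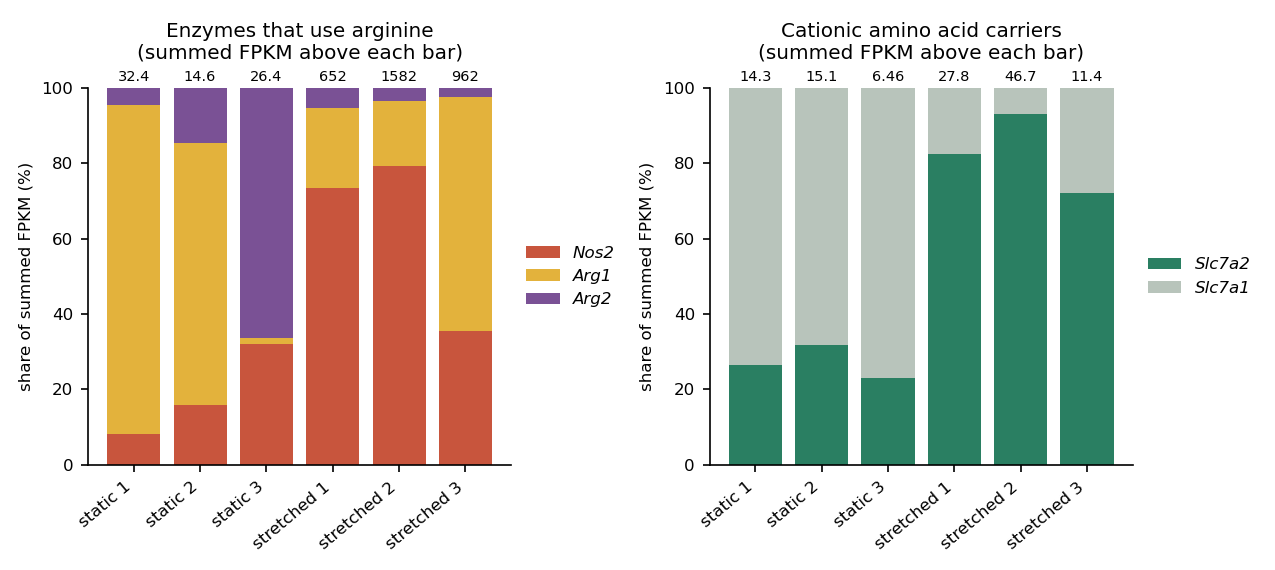
Share of the summed FPKM per library for the arginine-using enzymes (left: Nos2, Arg1, Arg2) and for the carriers (right: Slc7a2, Slc7a1), with the summed FPKM above each bar. Slc7a2 holds 72.1% to 93.1% of the carrier sum in stretched libraries and 23.1% to 31.9% in static ones, while the enzyme shares vary within both groups.

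The carriers lay on opposite sides of 0, and Slc7a2 alone passed the test. Slc7a2 (gene identifier 11988, chromosome 8, 40862341 to 40922070) makes the cationic amino acid transporter CAT2, an inducible carrier of arginine, lysine and ornithine. It measured 23, 43.5 and 8.2 FPKM in stretched 1 to 3 and 3.79, 4.83 and 1.49 FPKM in static 1 to 3. All stretched libraries were above all static ones, stretched 2 was again the highest, and replicate 3 was the lowest in both groups. It rose by 3.13 ± 0.71 on the log2 scale (SE, n = 3 per group, adjusted p = 0.035, edgeR). The adjusted p was 0.0847, 0.116, 0.105 and 0.0943 without stretched 1, stretched 2, static 1 and static 2, and 0.029 and 0.0295 without stretched 3 and static 3.

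Slc7a1 (gene identifier 11987, chromosome 5, 148327410 to 148399904) makes CAT1, the constitutive carrier of most cell types. It measured 4.87, 3.2 and 3.18 FPKM in stretched 1 to 3 and 10.5, 10.3 and 4.97 FPKM in static 1 to 3. Static 1 and 2 were about level and static 3 lay beside stretched 1. The groups did not overlap in FPKM and did overlap in CPM, where stretched 1 held 35.3 and static 3 held 31.2. The log2 fold change of -1.01 ± 0.32 (SE, n = 3 per group) did not pass (adjusted p = 0.0798, edgeR), but did with the replicate block (-0.95, adjusted p = 0.0463), in DESeq2 (-1.02, adjusted p = 0.0195), with library size alone (-1.20) and without static 3 (-1.31, adjusted p = 0.00577). Over the 13 alternatives its adjusted p ran from 0.00577 to 0.221.

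Set against each other, chosen after the values were seen, Slc7a2 was 82.5%, 93.1% and 72.1% of the summed FPKM of both carriers in stretched 1 to 3, against 26.5%, 31.9% and 23.1% in the static libraries. The log2 ratio of Slc7a2 to Slc7a1 was 1.37 to 3.76 in stretched and -1.74 to -1.09 in static libraries, a mean difference of 3.89 (exact two-sided permutation test, p = 0.1, the smallest possible). Static 3, which stood apart for the arginases, kept to its group for this ratio. Both carriers together summed to 27.8, 46.7 and 11.4 FPKM in stretched and 14.3, 15.1 and 6.46 FPKM in static libraries, so the sums overlapped.

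Neither enzyme of citrulline recycling passed the test with all libraries. Ass1 (gene identifier 11898, chromosome 2, 31470270 to 31520670), argininosuccinate synthase, joins citrulline to aspartate. It measured 194, 252 and 117 FPKM in stretched 1 to 3 and 91.7, 116 and 82.6 FPKM in static 1 to 3, so the lowest stretched library was just above the highest static one. The log2 fold change of 1.18 ± 0.33 (SE, n = 3 per group) missed the threshold (adjusted p = 0.0587, edgeR). It passed with the replicate block (1.10, adjusted p = 0.0355), in DESeq2 (adjusted p = 0.0056) and without stretched 3 (1.43, adjusted p = 0.0316), and without stretched 2 it was 0.80 (adjusted p = 0.178). Asl (gene identifier 109900, chromosome 5, 130011258 to 130024381), argininosuccinate lyase, releases arginine in the next step. It lay at 17.1 to 20.4 FPKM in stretched and 20.2 to 27.1 FPKM in static libraries (log2 fold change -0.09 ± 0.15, SE, n = 3 per group, adjusted p = 0.715, edgeR), with 0.04 without static 3. The log2 ratio of Ass1 to Asl, looked at after the values were seen, was 2.67 to 3.89 in stretched and 1.61 to 2.49 in static libraries (exact permutation test, p = 0.1).

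RefSeq's table of start sites (GRCm38.p6) held entries for 4 of the 10 genes, which were Ass1, Slc7a1, Odc1 and Gch1. The 250 bases before the start of Ass1 and before the upstream start of Slc7a1 are shown, since these are the arginine supply genes of the table that lay on opposite sides of 0. Capitals mark every match, on either strand, to any of 7 motifs. They were the TATA box spelled TATAAA, the GC box spelled GGGCGG, the E-box spelled CACGTG, the cAMP response element spelled TGACGTCA, the CCAAT box, the C/EBP-ATF element spelled TGATGNAA and the gamma-activated site spelled TTCNNNGAA. None of the 7 contains another.
Ass1, chr2:31470020-31470269, plus strand, 5′ to 3′: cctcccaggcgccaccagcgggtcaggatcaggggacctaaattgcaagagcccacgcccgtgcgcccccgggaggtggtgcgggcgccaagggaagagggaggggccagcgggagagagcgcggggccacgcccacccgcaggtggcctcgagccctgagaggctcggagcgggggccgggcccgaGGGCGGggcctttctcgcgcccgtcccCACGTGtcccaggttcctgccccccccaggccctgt
Slc7a1, chr5:148399905-148400154, minus strand, 5′ to 3′: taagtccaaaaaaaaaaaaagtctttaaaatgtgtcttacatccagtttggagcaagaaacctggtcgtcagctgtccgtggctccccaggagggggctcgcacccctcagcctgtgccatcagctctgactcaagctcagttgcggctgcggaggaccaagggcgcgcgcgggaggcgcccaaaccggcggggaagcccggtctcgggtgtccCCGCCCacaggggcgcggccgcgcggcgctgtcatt
The Ass1 window held a GC box at -63 to -58 and an E-box at -36 to -31, counted from the first transcribed base with -1 just before it. The Slc7a1 window held a GC box on the other strand at -36 to -31. The window of the downstream Slc7a1 start, not shown, held a TATA box at -28 to -23 and a gamma-activated site at -146 to -138. Of 32851 windows of this length in the table, 32.7% held a GC box, 33.8% the CCAAT box, 12.4% the TATA box, 6.02% the E-box, 7.02% the gamma-activated site, 3.45% the C/EBP-ATF element and 1.55% the cAMP response element. A match is a run of letters in this window and not a site in use, and the windows of Nos2, Arg1, Arg2, Slc7a2, Asl and Azin1 are not shown.

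Gch1 (gene identifier 14528, chromosome 14, 47153895 to 47189413), which encodes GTP cyclohydrolase, the entry enzyme of tetrahydrobiopterin synthesis, did not pass. It measured 31.8, 33.3 and 23.5 FPKM in stretched and 25.9, 30.5 and 18.8 FPKM in static 1 to 3, and the groups overlapped. Replicate 2 was the highest and replicate 3 the lowest in both groups. The log2 fold change was 0.44 ± 0.25 (SE, n = 3 per group, adjusted p = 0.271, edgeR), and 0.24 to 0.62 over the alternatives. Of 6 tested genes in the list of tetrahydrobiopterin enzymes, 0 were higher and 1 was lower, beside 11.9% of all genes called in either direction. Before adjustment 0 were higher and 3 lower at p under 0.05, against between 3931 and 4102 of all 12892 genes in either direction. DESeq2 called 0 and 3, where 9.97% of all genes were lower. The faller was Spr, sepiapterin reductase, which makes the last step of cofactor synthesis. It held 8.55, 7.08 and 9.32 CPM in stretched and 17.3, 15.7 and 15.7 CPM in static libraries, and fell by 0.97 on the log2 scale (SE 0.17, adjusted p = 0.0213, edgeR). The median log2 fold change of the list was -0.23.

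Odc1 (gene identifier 18263, chromosome 12, 17544808 to 17551502), ornithine decarboxylase, is the entry to polyamines. It measured 43.8, 40.6 and 35.6 FPKM in stretched 1 to 3, close together, and 78, 70.1 and 29.4 FPKM in static 1 to 3. Static 1 and 2 were above all stretched libraries and static 3 was below them. With all libraries the log2 fold change was -0.37 ± 0.35 (SE, n = 3 per group, adjusted p = 0.5, edgeR). Without static 3 it was -0.71 (adjusted p = 0.017, with 0.017 to 0.866 over the 13 alternatives). Odc1 has near-identical processed copies in the mouse genome, and the sources used here do not say how reads shared with them were divided.

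Azin1 (gene identifier 54375, chromosome 15, 38487430 to 38519294) makes antizyme inhibitor, an inactive relative of ornithine decarboxylase that draws antizyme away from it. It lay at 46.2 to 54.5 FPKM in stretched and 41.4 to 61.6 FPKM in static libraries, so the groups overlapped, and the log2 fold change was 0.20 ± 0.22 (SE, n = 3 per group, adjusted p = 0.562, edgeR).

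Around them, 2 of 15 tested polyamine genes rose and 1 fell, where 6.55% of all genes rose and 5.38% fell. Azin2, another antizyme inhibitor gene, held 13.5 to 15.1 CPM in stretched and 4.98 to 6.44 CPM in static libraries and rose by 1.33 ± 0.18 on the log2 scale (SE, adjusted p = 0.0145, edgeR). Smox, spermine oxidase, held 87.9, 170 and 170 CPM against 62.2, 50.9 and 55 CPM and rose by 1.35 ± 0.26 (SE, adjusted p = 0.0246, edgeR). Amd1, the decarboxylase that supplies the aminopropyl donor, held 81.1 to 100 CPM against 133 to 160 CPM and fell by 0.77 (SE 0.15, adjusted p = 0.0246, edgeR). The median of the list was 0.09. Without static 3, 4 of the list were higher and 7 lower, against 16.1% and 15.4% of all genes. DESeq2 with all libraries called 2 and 6, against 10.9% and 9.97%. Named after its value was seen, spermidine synthase, Srm, held 27.6, 21.4 and 27 CPM in stretched libraries, 78.6 and 61.7 CPM in static 1 and 2, and 31.4 CPM in static 3 (adjusted p = 0.0523, edgeR, and 0.0032 without static 3).

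**Figure D3:**
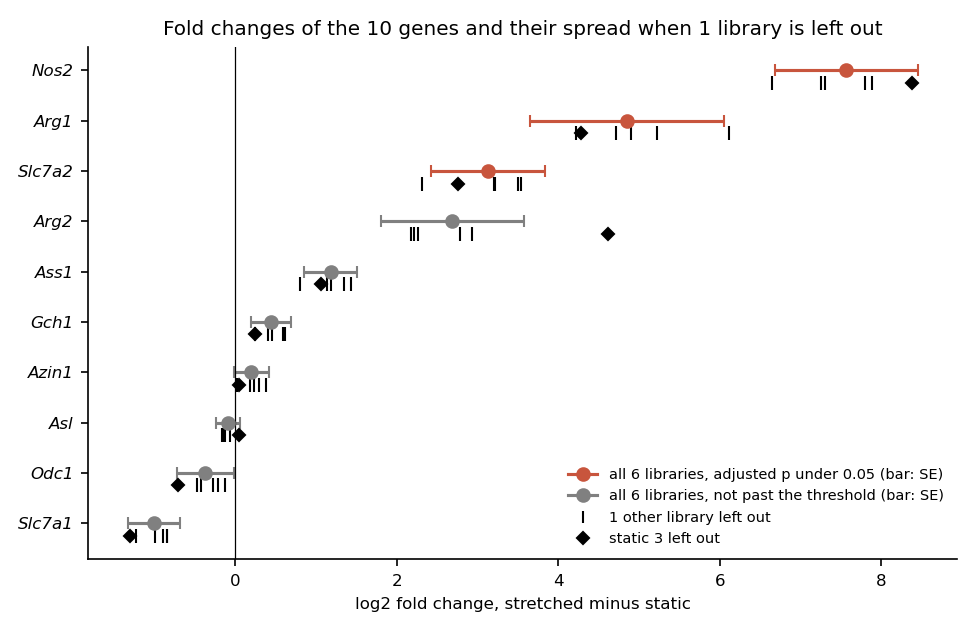
Log2 fold change (stretched minus static) of the 10 genes with all 6 libraries (circles with SE bars, red where the adjusted p was under 0.05) and with 1 library left out (ticks, and a diamond for static 3). Leaving out static 3 moves Arg2 from 2.69 to 4.62 and Odc1 from -0.37 to -0.71, and Nos2 runs from 6.65 to 8.38.

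Ranked by mean FPKM, the static libraries were led by Ass1 (96.7 ± 17.3), followed by Odc1 (59.2 ± 26.1) and Azin1 (50.9 ± 10.2, SD, n = 3), and Nos2 (4.48 ± 3.47) and Slc7a2 (3.37 ± 1.71) came last. In the stretched libraries Nos2 (691 ± 492), Arg1 (336 ± 236) and Ass1 (188 ± 67.8) led and Slc7a1 (3.75 ± 0.97) came last. The ranges of Nos2 and Arg1 and of Arg1 and Ass1 overlapped in stretched libraries, so their order does not exceed the spread. The range of Ass1 was clear of that of Azin1 below it. From Odc1 through Arg2, Gch1 and Slc7a2 to Asl, each stretched range overlapped the next. In static libraries Ass1 was clear of Odc1, and Azin1 was clear of Gch1, and every other neighbour overlapped the next.

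The transcript table added detail for Nos2 and Slc7a2. Of 4 Nos2 transcripts, NM_010927.4 took 85.2%, 87.5% and 71.5% of the estimated Nos2 counts in stretched 1 to 3, against 88%, 36.8% and 79% in the static libraries. NM_001313922.1 took 12.2%, 10.8% and 26.3% in stretched and 12%, 52.5% and 21% in static libraries, where it rested on 21.9, 81.8 and 119 estimated counts. GENCODE M21 pairs NM_001313922.1 and NM_001313921.1 with a model that begins 4416 bases downstream of that of NM_010927.4 and has 3093 coding bases in place of 3432. The predicted XM_006532446.3 took at most 2.64% in stretched libraries, and NM_001313921.1 had counts in stretched 2 alone (74.8). Both of the leading Nos2 transcripts were higher in every stretched library than in any static one. NM_010927.4 had 28029, 75679 and 16533 estimated counts against 161, 57.5 and 449, and NM_001313922.1 had 4001, 9385 and 6079. Arg1, Arg2, Ass1 and Gch1 had 1 transcript each in the table.

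Slc7a2 had 2 transcripts that differ by a swap of adjacent coding exons, one of 140 bases (chromosome 8, 40908056 to 40908195) in NM_001044740.2 and one of 137 bases (40908398 to 40908534) in NM_007514.3, per GENCODE M21. Mouse Slc7a2 is known to give a high-affinity and a low-affinity carrier through such a swap. NM_001044740.2 held 97.6%, 95.8% and 100% of the estimated counts in stretched 1 to 3, 93.6% and 100% in static 1 and 2, and 10% in static 3, where it had 19.3 counts against 173 for NM_007514.3. Static 3 was thus the library in which most estimated counts were assigned to NM_007514.3, on the lowest Slc7a2 count of the 6 libraries (192). The 2 models also end at different bases, 40918056 for NM_001044740.2 and 40922308 for NM_007514.3. Whether the assignment rests on reads from the swapped exons was not tested. For Azin1, Asl and Odc1 the same transcript led in every library, at 51% to 56.4%, 83.8% to 92% and 91.1% to 95.6%. Slc7a1 was led by NM_001301424.1 in every library, at 58.6% to 85.5%. The transcript test in edgeR had little power. In edgeR 0 of 20 tested transcripts of these genes passed. Before adjustment 8 of the 20 had p under 0.05, against 4567 of all 29604 transcripts, and DESeq2 called 7 of them. After adjustment edgeR called 0.00338% of all transcripts and DESeq2 called 9.29%. In counts simulated for this transcript comparison (26504 transcripts) edgeR recovered 0 of 100 transcripts changed 2-fold and 0 of 100 changed 4-fold. DESeq2 made 127 false calls on these simulated counts, where edgeR made 0. Its true calls there were 9 at 2-fold and 56 at 4-fold. Its 7 calls among the transcripts of these genes may include false ones. The simulation cannot tell how many, since it changed few transcripts and only by 2-fold or 4-fold.

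**Figure D4:**
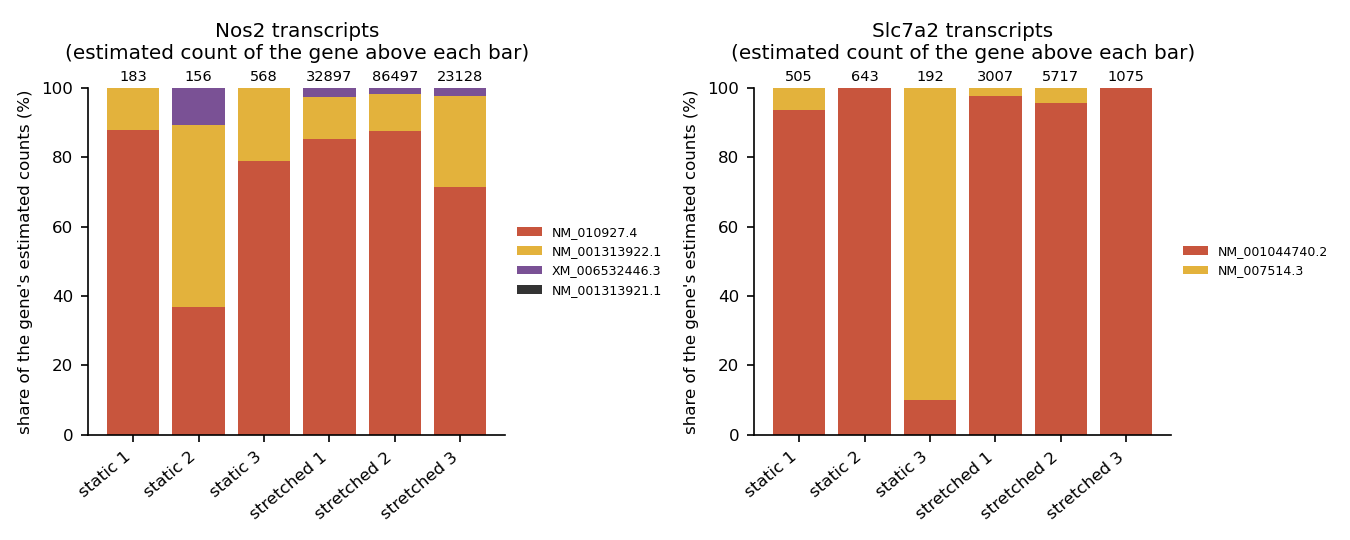
Share of the estimated counts of Nos2 (left) and Slc7a2 (right) assigned to each RefSeq transcript in each library, with the estimated count of the gene above each bar. NM_010927.4 leads for Nos2 in every library but static 2, and NM_001044740.2 leads for Slc7a2 in every library but static 3.

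Among 20 tested genes of a list that act on or respond to nitric oxide, 3 rose and 0 fell (median log2 fold change 0.04). Of all genes 6.55% rose and 5.38% fell. Before adjustment 5 of the list were higher and 2 lower at p under 0.05, against between 3931 and 4102 of all 12892 genes in either direction. DESeq2 called 4 and 1, against 10.9% and 9.97% of all genes. Spsb1, an adaptor that directs the inducible synthase to degradation, held 28.2 to 30.2 CPM in stretched and 11.6 to 15 CPM in static libraries and rose by 1.16 ± 0.15 on the log2 scale (SE, adjusted p = 0.014, edgeR). Gucy1b1, a subunit of the guanylate cyclase that senses nitric oxide, held 33.9, 39 and 21.5 CPM against 17.8, 14.3 and 13.2 CPM and rose by 1.06 ± 0.24 (SE, adjusted p = 0.035, edgeR). Ddah2, a gene of the family that clears methylated arginines, held 12.5 to 14.3 CPM against 4.87 to 8.83 CPM and rose by 1.09 ± 0.25 (SE, adjusted p = 0.0376, edgeR).

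Of 10 other carriers and sensors of arginine, 1 rose and 0 fell (median 0.02), against 6.55% and 5.38% of all genes. Before adjustment 2 were higher and 4 lower at p under 0.05, against between 3931 and 4102 of all 12892 genes in either direction. DESeq2 called 1 and 3, against 10.9% and 9.97%. The riser was Castor1, a cytosolic arginine sensor upstream of mTORC1, at 9.39 to 11 CPM in stretched and 3.28 to 5.02 CPM in static libraries (1.27 ± 0.22, SE, adjusted p = 0.0205, edgeR). Of 12 tested genes of ornithine, proline and the urea cycle, 0 passed in either direction (median -0.23), against 6.55% and 5.38% of all genes. Before adjustment 1 was higher and 3 lower at p under 0.05 (edgeR), against between 3931 and 4102 of all 12892 genes in either direction. In DESeq2 0 of the 12 were called, against 10.9% and 9.97% of all genes. The most abundant of them were Ckb, brain-type creatine kinase, at 38.5 to 276 CPM in stretched and 138 to 169 CPM in static libraries (adjusted p = 0.848, edgeR), and Oat, ornithine aminotransferase, at 67.3 to 74 CPM against 74.6 to 84.5 CPM (log2 fold change -0.14 ± 0.12, SE, adjusted p = 0.451, edgeR).

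Some enzymes that methylate protein arginines fell. Of 10 tested genes of arginine methylation and arginine tRNA, 0 rose and 4 fell (median -0.84, against -0.002 over all genes), where 5.38% of all genes fell. Before adjustment 0 were higher and 6 lower at p under 0.05, against between 3931 and 4102 of all 12892 genes in either direction. DESeq2 called 0 and 5, against 10.9% and 9.97% of all genes. Prmt1, the most abundant of those that fell, held 36.9 to 45.1 CPM in stretched and 61.3 to 84.5 CPM in static libraries and fell by 0.86 on the log2 scale (SE 0.16, adjusted p = 0.0245, edgeR). Prmt3, which methylates a ribosomal protein, held 6.67 to 9.45 CPM against 14.9 to 28.7 CPM and fell by 1.40 (SE 0.27, adjusted p = 0.0246, edgeR). Prmt6, a nuclear enzyme that methylates histone H3, held 4.15 to 6.38 CPM against 9.9 to 16.5 CPM and fell by 1.36 (SE 0.26, adjusted p = 0.0246, edgeR). All of these groups were separate, with static 3 the lowest static library for each. Prmt5, which makes symmetric dimethylarginine, held 16.5 to 24 CPM against 59.1, 51.2 and 29.4 CPM and fell by 1.12 (SE 0.28, adjusted p = 0.0427, edgeR, and 0.064 with the replicate block). Without static 3, 7 of the list were lower, against 15.4% of all genes.

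Of 19 tested factors and receptors known to act at Nos2 or Arg1, 4 rose and 2 fell (median 0.07), against 6.55% and 5.38% of all genes. With the replicate block 3 rose and 2 fell, against 5.86% and 3.16%. Cebpb, a basic leucine zipper factor that acts on both genes, held 501, 623 and 398 CPM in stretched and 204, 232 and 223 CPM in static libraries and rose by 1.20 ± 0.20 on the log2 scale (SE, adjusted p = 0.0193, edgeR). Csf2rb, the shared receptor chain for granulocyte-macrophage colony-stimulating factor and interleukins 3 and 5, held 432 to 597 CPM against 271 to 286 CPM and rose by 0.89 ± 0.17 (SE, adjusted p = 0.0245, edgeR). Hif1a, the oxygen-regulated factor, named after its value was seen, rose by 1.52 ± 0.31 (SE, adjusted p = 0.0289, edgeR, and 0.0569 with the replicate block). Cebpd held 27.9 to 47.8 CPM against 103 to 163 CPM and fell by 1.84 (SE 0.26, adjusted p = 0.0156, edgeR), and the lipid-sensing receptor gene Pparg held 8.37 to 9.26 CPM against 20.1 to 26.7 CPM and fell by 1.41 (SE 0.16, adjusted p = 0.0122, edgeR). Over all these lists, 10 of 92 tested genes rose and 8 fell, against 6.55% and 5.38% of all genes. Every one of these calls was lost without stretched 2 and without static 2, and among the genes named here the highest adjusted p over the 13 alternatives ran from 0.0541 for Pparg to 0.142 for Prmt5 (edgeR). Without static 3 the counts were 18 and 25, against 16.1% and 15.4% of all genes. Without static 2 they were 0 and 0 in edgeR, with 33 genes of the lists at p under 0.05 before adjustment, against 2855 of 13098 tested genes.

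**Figure D5:**
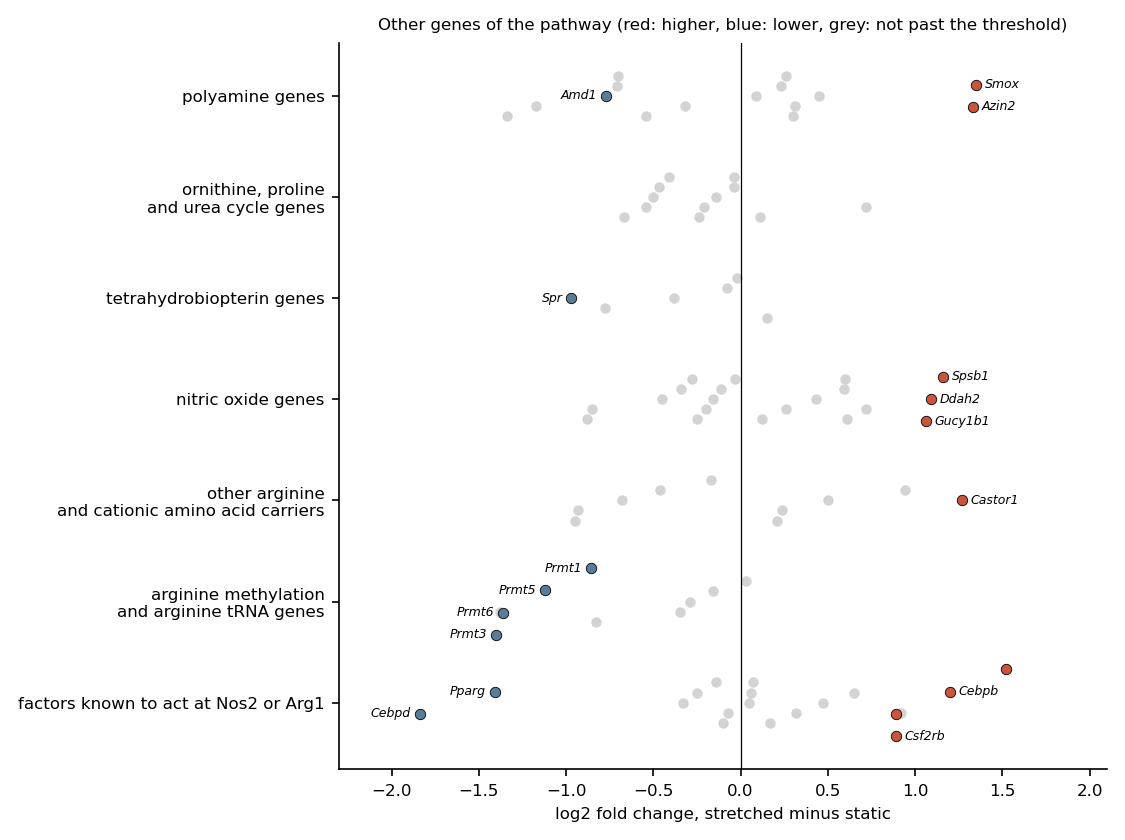
Log2 fold change (stretched minus static) of the 92 tested genes in 7 lists around arginine, 1 point per gene, with genes past the threshold in red (higher) or blue (lower), and the names of up to 4 of them per list with the smallest p. Prmt1, Prmt3, Prmt5 and Prmt6 lie to the left of 0, and Spsb1, Ddah2, Gucy1b1, Azin2, Smox and Castor1 to the right.

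Over the 6 libraries, the genes whose log2 CPM was most like that of Nos2 among 10215 tested genes of at least 5 CPM were Ier3 (Pearson r = 0.9996), Ero1l (0.9970), Zc3h6 (0.9966), Npc1 (0.9966) and Pcmtd1 (0.9963). Ier3 held 249, 298 and 226 CPM in stretched and 79.4, 78.7 and 101 CPM in static 1 to 3, so static 3 was its highest static library, as for Nos2. The genes most like Arg1 were Mpzl1 (0.993), Gmppa, Kctd7, Sel1l3 and Prkcsh (0.990), none of which passed the threshold (adjusted p = 0.0777 to 0.171, edgeR). Sel1l3 held 12.1, 17 and 18.6 CPM in stretched and 10.5, 8.09 and 4.26 CPM in static 1 to 3. Among the 10 genes themselves, r with Nos2 was 0.914 for Arg2, 0.844 for Slc7a2, 0.829 for Ass1, 0.749 for Arg1 and -0.806 for Slc7a1. These values describe 6 libraries in 2 groups, so a gene that separates the groups scores high whatever it does within them, and all genes share the same libraries and depth.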

How the data were processed

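Macrophage RNA was measured by mRNA sequencing in 6 libraries. The authors deposited estimated counts, not normalised, and a length-scaled value per gene and per transcript, per the file headers. The second equals count over effective length and library total, so it was read as the authors' FPKM, deposited without a named unit. GRCm38 and mm10 are named in the submitters' processing notes. The sources used here name no aligner or counter.

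Counts were rounded, filtered with filterByExpr (minimum count 10, 12892 genes kept and 4014 not tested) and compared with edgeR 4.0.16 in R 4.3.3 (quasi-likelihood test, TMM factors, Benjamini-Hochberg, threshold 0.05). CPM use the TMM-adjusted totals. The SE comes from the F statistic. DESeq2 1.42.0, limma 3.58.1 (voom), other scalings and filters, a replicate block and leaving out each library were alternatives. On simulated data for this comparison (12807 genes), edgeR found 23 of the 100 changes of 2-fold and 88 of the 100 changes of 4-fold, beside 6 false calls, and DESeq2 found 50 and 92 beside 46. Same-numbered libraries deviated together (correlations 0.286, 0.183 and 0.182, against -0.24 to 0.109 for the other pairs), so the replicate block pairs libraries by the numbers of their titles. The main fit did not pair them. Of the 10 genes, Arg1 lost its call with the block (adjusted p = 0.0859, edgeR), and Ass1 (0.0355) and Slc7a1 (0.0463) gained one. The 10 genes and the lists were chosen with earlier results of these data known. From each list the text names up to 4 genes past the threshold with the smallest p, or the 2 most abundant, and 5 genes most like Nos2 and Arg1. 1 of the factors that passed the threshold is not reported here. Gene coordinates and symbols come from RefSeq on GRCm38.p6.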

Additional observations from a re-analysis of the deposited data

How the results depend on the processing

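The signs of the 10 genes held under the 13 alternatives, except that Asl was at 0.04 without static 3 (as low as -0.17 with another library left out, and -0.29 with library size alone). Azin1 kept its sign only at 0.00022 with library size alone and at 0.02 without stretched 2, which is almost no change. Of 130 values, 108 kept both their direction and their side of the threshold, 11 lost and 10 gained a call. The remaining 1, Asl without static 3, changed direction and stayed uncalled. Library size alone as the scaling shifted the all-gene median to -0.19 (log2), with 556 genes called higher and 1297 lower against 844 and 694, and 1 of the 10 genes (Slc7a1) and 19 of the other pathway genes lower. DESeq2 called 1398 higher and 1284 lower, with 1 of the 10 and 20 pathway genes lower, and 2737 transcripts. On the simulated transcript counts it made 127 false calls. The replicate block, for libraries paired by number, called 408 genes lower, 1 of the 10 genes lower and 0 transcripts, and it changed no call of a named gene other than those given above.

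With each library left out in turn, genes called higher ran from 0 to 2095 and lower from 0 to 2011, in the 10 genes from 0 to 4 higher and 0 to 2 lower, in the pathway lists from 0 to 18 higher and 0 to 25 lower, and transcripts were 0 throughout (4567 at an unadjusted p under 0.05 with all libraries). Without static 2 all of these counts were 0, with 2855 genes at p under 0.05 before adjustment in edgeR. Without stretched 2 the pathway lists were also at 0 (29 before adjustment), and of the 10 genes 0 were lower in every such fit but that without static 3. The Nos2 to Arg1 difference ran from -0.08 without static 1 to 3.84 without static 3. The causes were not tested. Some values in static libraries rest on few counts. Arg1 had 9 in static 3, against 661 and 237 in static 1 and 2, at similar library totals. The Slc7a2 transcripts had 19.3 and 173 in static 3, and Nos2 had 156 to 568 in static libraries.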
